A study of Mus musculus with 12 samples.

Results

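The small leucine-rich proteoglycans Fmod, Kera, Dcn, Bgn, Lum, Omd and Ogn were followed in skeletal muscle of mice deficient in dysferlin. Dysferlin helps muscle fibres to reseal a torn plasma membrane. All probe sets that the annotation of the array names for 1 of these 7 genes were taken, which gave 10 of the 12422 probe sets that are not controls, for 7 of the 8252 genes named. Fmod, Bgn and Ogn had 2 probe sets each, and the other 4 genes had 1. Mutant mice of the line C57BL/10-SJL.Dysf (Dysf -/-, called Dysf_null here) were compared with C57BL/10 mice (Dysf +/+, called Control), all 3 weeks old. Total RNA came from 2 muscles labelled QF and TA, known from the study to be the quadriceps femoris of the thigh and the tibialis anterior of the lower leg, and the study asked how dysferlin deficiency bears on each. Each genotype was measured in each muscle on 3 arrays, and the groups are written Dysf_null_QF, Control_QF, Dysf_null_TA and Control_TA. The strain names differ by SJL as well as by Dysf, so the dysferlin allele and any other SJL sequence that the mutant line carries cannot be told apart. Whether each array of a group stands for another mouse is not stated, so the p-values speak only of the spread from array to array, which may be technical.

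Small leucine-rich proteoglycans are secreted proteins whose core of leucine-rich repeats binds collagen fibrils, and they govern how fibrils assemble and how thick they grow. Several also bind growth factors of the TGF-beta family and cell-surface receptors. Decorin (Dcn) and biglycan (Bgn) form the first class and carry chondroitin or dermatan sulfate chains. Fibromodulin (Fmod), lumican (Lum), keratocan (Kera) and osteomodulin (Omd) form the second class, with keratan sulfate chains and sulfated tyrosines on several of them. Osteoglycin (Ogn, also called mimecan) belongs to the third. In muscle the family is made mainly by fibroblasts of the connective tissue, and in tendon fibromodulin, lumican, decorin and biglycan are known regulators of fibril growth.

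Fmod, Kera and Ogn are the 3 genes whose averaged difference between genotypes passed the test, and the 250 bases before their annotated starts are shown so that their upstream sequences can be compared. Of the 7 genes, 5 were in the RefSeq promoter table (GRCm38.p6). The sequences lie on the plus strand at chr1:134037004-134037253 for Fmod, chr10:97606955-97607204 for Kera and chr13:49607765-49608014 for Ogn. Capitals mark E-boxes (CANNTG), the letters recognised by basic helix-loop-helix factors such as scleraxis.
Fmod: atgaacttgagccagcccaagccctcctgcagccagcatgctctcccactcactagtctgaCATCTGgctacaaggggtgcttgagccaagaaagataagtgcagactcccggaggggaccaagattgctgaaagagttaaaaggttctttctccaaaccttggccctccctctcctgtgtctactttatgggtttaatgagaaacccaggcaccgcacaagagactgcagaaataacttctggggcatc
Kera: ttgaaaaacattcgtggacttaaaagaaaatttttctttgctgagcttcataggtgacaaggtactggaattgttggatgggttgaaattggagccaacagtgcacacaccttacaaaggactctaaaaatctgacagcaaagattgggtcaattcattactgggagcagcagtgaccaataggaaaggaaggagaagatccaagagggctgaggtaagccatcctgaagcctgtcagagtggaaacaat
Ogn: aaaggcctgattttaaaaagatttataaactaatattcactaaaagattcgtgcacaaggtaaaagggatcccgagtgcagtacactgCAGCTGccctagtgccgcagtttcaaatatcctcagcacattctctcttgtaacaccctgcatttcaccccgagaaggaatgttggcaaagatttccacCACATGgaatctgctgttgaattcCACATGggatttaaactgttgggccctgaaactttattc
The 4 motifs searched on both strands were the E-box, the SMAD box CAGAC, the TATA motif TATAAA, and the EGR motif GCGNGGGCG. The Fmod window held 1 E-box, 189 bases before the start, and 2 SMAD boxes, 195 and 148 bases before it. The upstream bases of Ogn held 3 E-boxes, 162, 63 and 39 bases before the start, and 2 overlapping TATA matches near the far end of the window. Of the 4 motifs, 0 were found in the Kera window. Among 32851 windows of the same length, 66.2% held an E-box, 42.2% a SMAD box, 12.4% the TATA motif and 4.7% the EGR motif. These matches are a description of letters and not of binding, and the arrays do not bear on it.

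The arrays did not all stand alike. The 2 QF arrays numbered 2 had median correlations of 0.876 (Dysf_null) and 0.866 (Control) with the other arrays, against 0.926 to 0.959 for the remaining 10. The averaged differences of the leading members are therefore also given without both. A transcript of Dysf itself could not be followed, since the annotation names no probe set for it, and the genotype labels were not checked in that way.

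Fmod was the member with the largest difference between genotypes, and it was higher in Dysf_null mice by about the same amount in both muscles. Its deposited intensities at probe set 99152_at were 1078.7, 890.7 and 1178.0 in Dysf_null_QF, against 271.6, 424.2 and 458.3 in Control_QF. In TA they were 960.6, 1474.7 and 1693.5 in Dysf_null mice, against 322.1, 550.1 and 597.6 in Control mice. Every Dysf_null array lay above every Control array, whichever muscle it came from.

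After quantile normalization the log2 level of Fmod averaged 10.09 ± 0.09 in Dysf_null_QF and 8.58 ± 0.40 in Control_QF (SD, n = 3 each). In TA it averaged 10.37 ± 0.41 in Dysf_null and 8.87 ± 0.45 in Control mice. All differences below are Dysf_null minus Control on this log2 scale with their SE, from a limma fit to all 12 arrays and adjusted by the Benjamini-Hochberg method over the 10331 probe sets tested, and an adjusted p under 0.05 counts as passed. Fmod rose by 1.51 ± 0.26 in QF (2.86-fold, adjusted p = 0.0242) and by 1.51 ± 0.26 in TA (2.84-fold, adjusted p = 0.0202). The average of both muscles was 1.51 ± 0.18, a 2.85-fold difference with a 95% interval of 2.16 to 3.76 (adjusted p = 0.00127). It was 1.63 without both QF arrays numbered 2 (adjusted p = 0.00538). The difference in TA minus that in QF was -0.01, with a 95% interval of -0.81 to 0.79. Fmod was 1 of 9 probe sets, 0.0871% of those tested, that passed as higher in QF and in TA alike. In bulk muscle RNA, more cells of a type and more RNA per cell cannot be told apart, which holds for every difference given here.

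The averaged rise of Fmod passed in 20 of 20 other settings, with adjusted p-values of at most 0.0134. For Fmod the QF value alone no longer passed without any 1 of the 3 Dysf_null_QF arrays (adjusted p = 0.0767, 0.0608 and 0.0973 without arrays 1, 2 and 3) or without Control_QF array 1 (0.107), and without both QF arrays numbered 2 it was 1.71 (0.0961). The TA value no longer passed without Dysf_null_TA array 2 or 3 (adjusted p = 0.127 and 0.129) or without Control_TA array 1 or 2 (0.099 and 0.0709).

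The other Fmod probe set, 161373_r_at, whose suffix marks a design in which some probe selection rules were dropped, was near the lower limit of the data. Its log2 level ran between 4.53 and 6.10, and 5 of 12 arrays stood at the floor of 4.53 that was set for low values. Its averaged difference was 0.31 ± 0.30 and did not pass, so the rise of Fmod rests on 1 probe set.

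**Figure D1:**
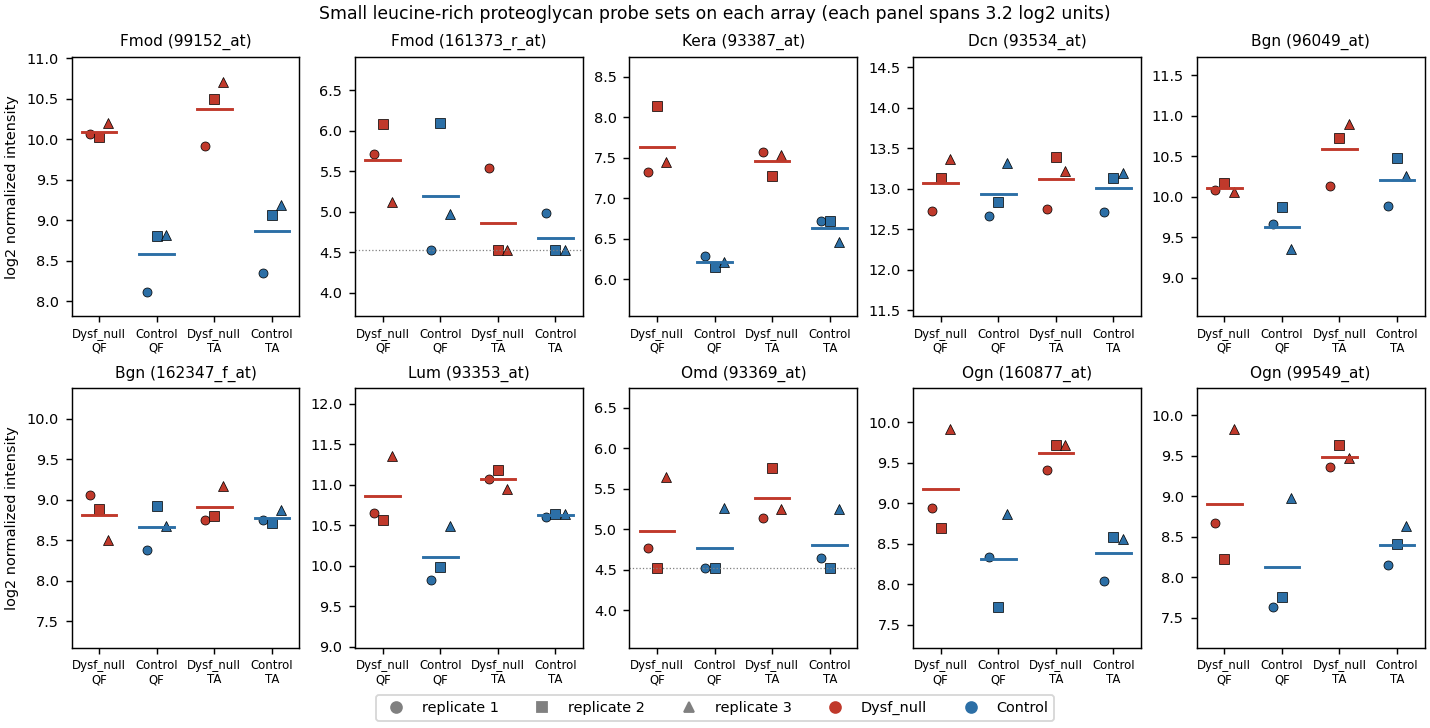
Log2 normalized intensity (vertical axis, each panel 3.2 log2 units tall) of the 10 proteoglycan probe sets on each array, by genotype and muscle; symbols mark the replicate number, bars the group mean of 3 arrays, and the dotted line the floor at 4.53. For Fmod (99152_at), Kera and Lum every Dysf_null array lies above every Control array of the same muscle, while the Dcn groups overlap.

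Kera, which encodes the keratan sulfate proteoglycan keratocan best known from the cornea, was the second member whose groups did not overlap in either muscle. Its log2 levels were 7.32, 8.14 and 7.45 on Dysf_null_QF arrays 1, 2 and 3, against 6.29, 6.15 and 6.22 in Control_QF. In TA they were 7.57, 7.28 and 7.53 in Dysf_null mice, against 6.72, 6.72 and 6.46 in Control mice. The highest value of all came from Dysf_null_QF array 2, and the 3 Control_QF arrays were the 3 lowest.

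Kera rose by 1.41 ± 0.27 in QF (2.67-fold, adjusted p = 0.0394) and by 1.12 ± 0.19 as the average of both muscles (2.17-fold, 95% interval 0.71 to 1.53 on the log2 scale, adjusted p = 0.0118). In TA its difference was 0.83 ± 0.27 and did not pass (adjusted p = 0.533). The TA difference minus the QF difference was -0.59 ± 0.38, with a 95% interval of -1.41 to 0.24 (adjusted p = 1.00), so a different size in the 2 muscles was not shown. The averaged rise passed in 19 of 20 other settings and missed the threshold without Dysf_null_TA array 3 (adjusted p = 0.0505). The QF value missed the threshold when any 1 of the 12 arrays was left out (adjusted p of 0.0593 to 0.113). Without both QF arrays numbered 2, Kera differed by 1.17 in QF (adjusted p = 0.145) and by 1.02 as the average (0.0161).

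Ogn, the third-class member, was higher in Dysf_null mice at both of its probe sets. At 160877_at the log2 levels were 8.94, 8.69 and 9.91 in Dysf_null_QF, against 8.33, 7.72 and 8.86 in Control_QF. In TA they were 9.41, 9.72 and 9.71 in Dysf_null mice, against 8.03, 8.58 and 8.55 in Control mice. The TA groups did not overlap, whereas in QF Control array 3 was above Dysf_null array 2. The QF arrays numbered 3 were the highest of their group in both genotypes.

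The averaged difference of Ogn at this probe set was 1.05 ± 0.23 (2.07-fold, 95% interval 0.55 to 1.55 on the log2 scale), just inside the threshold (adjusted p = 0.0496). It no longer passed when 10 of the 12 arrays were left out in turn (adjusted p of 0.0711 to 0.142). It still passed without Dysf_null_QF array 2, without Control_QF array 3, and without both QF arrays numbered 2 (1.06, adjusted p = 0.0398). Within a muscle the differences were 0.87 ± 0.32 in QF (adjusted p = 0.516) and 1.23 ± 0.32 in TA (adjusted p = 0.261), and neither passed. The second Ogn probe set, 99549_at, had differences of 0.79 ± 0.39 in QF, 1.09 ± 0.39 in TA and 0.94 ± 0.27 as their average (adjusted p = 0.181). Its levels ran between 7.64 and 9.82, and its TA groups likewise did not overlap.

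Lum, the lumican that binds fibrils at sites it shares with fibromodulin, was higher on every Dysf_null array than on every Control array of the same muscle. Its log2 levels were 10.65, 10.57 and 11.35 in Dysf_null_QF, against 9.83, 9.99 and 10.50 in Control_QF. In TA they were 11.07, 11.18 and 10.95 in Dysf_null mice, against 10.60, 10.65 and 10.65 in Control mice. In QF the gap between the nearest arrays of the groups was small beside the spread within each group. The differences were 0.75 ± 0.20 in QF (adjusted p = 0.201), 0.44 ± 0.20 in TA (adjusted p = 1) and 0.60 ± 0.14 as their average (1.51-fold, adjusted p = 0.0822). None of these passed in the fit without pairs, although the average passed without Control_QF array 3 (adjusted p = 0.026). Without both QF arrays numbered 2 it was 0.64 (adjusted p = 0.0969).

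Bgn, whose product biglycan in soluble form is known to engage Toll-like receptors, had log2 levels of 10.09, 10.17 and 10.06 in Dysf_null_QF at 96049_at, against 9.67, 9.87 and 9.35 in Control_QF. In TA they were 10.14, 10.72 and 10.90 in Dysf_null mice, against 9.88, 10.48 and 10.26 in Control mice. The QF groups did not overlap and the TA groups did. The averaged difference was 0.43 ± 0.15 (adjusted p = 0.316). At the second probe set, 162347_f_at, whose suffix marks probes that may match related sequences, the average was 0.14 ± 0.14 (adjusted p = 1.00).

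Dcn, the decorin that is the best-known proteoglycan of muscle connective tissue, had nearly the same values in both genotypes. Its log2 levels were 12.72, 13.14 and 13.37 in Dysf_null_QF, against 12.66, 12.83 and 13.32 in Control_QF. In TA they were 12.75, 13.39 and 13.22 in Dysf_null mice, against 12.71, 13.14 and 13.19 in Control mice. The groups overlapped in both muscles, with the arrays numbered 1 lowest in all 4 groups. The averaged difference was 0.12 ± 0.16 with a 95% interval of -0.22 to 0.46 (adjusted p = 1.00), and the deposited table holds no mark for saturated signals.

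Omd, which is known from bone and tooth matrix, was near the floor: its log2 levels ran between 4.53 and 5.76, and 4 of 12 arrays stood at the floor. Its averaged difference was 0.39 ± 0.25 (adjusted p = 0.909), and arrays of both genotypes were at the floor in QF.

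**Figure D2:**
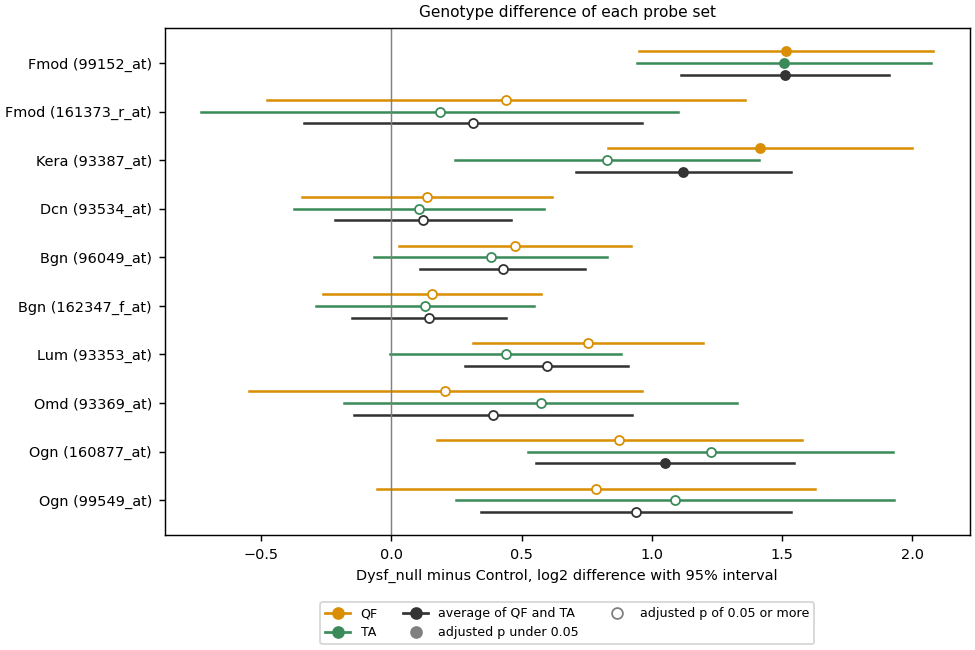
Log2 difference Dysf_null minus Control (horizontal axis) of each probe set with its 95% interval, in QF, in TA and as their average; filled points passed at an adjusted p under 0.05. The points of all 10 probe sets lie right of 0, from 0.12 for Dcn to 1.51 for Fmod in the average.

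Counted together, 2 of the 10 probe sets rose and 0 fell in QF, where 0.3% of all probe sets tested rose and 0.155% fell. In TA 1 rose and 0 fell, against 0.252% of all that rose and 0.155% that fell. For the average 3 rose and 0 fell, against 0.784% and 0.31% of all. All 10 passed the filter on low values. The difference was positive for 10 of 10 in each muscle, and for the average, while 48.5% of all probe sets tested were positive in QF, 48.8% in TA, 47.6% for the average and 26.5% in both muscles. The 2 probe sets of a gene measure the same transcripts, so these are 7 genes and not 10 separate cases. All of them were read on the same arrays. The members were chosen with earlier results of these data known. The counts and shares here and below therefore describe the members and test nothing. The median difference of the 10 was 0.61 in QF, 0.51 in TA and 0.51 for the average, against -0.01, 0.00 and -0.01 over all probe sets tested. The groups did not overlap for 4 of the 10 in QF (Fmod, Kera, Bgn and Lum at the first-named probe sets), against 4.08% of all that were higher without overlap. In TA it was 5 (Fmod, Kera, Lum and both of Ogn), against 6.92%, and in both muscles 3 (Fmod, Kera and Lum), against 1.29%.

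The replicate numbers of the labels appear in both genotypes, but the labels do not say what a number shares between them. Over all probe sets tested, deviations of same-numbered arrays from their group means correlated by 0.39 to 0.711 in QF. In TA they did so weakly (0.114 to 0.231). Over the 7 genes alone these correlations were mixed, from -0.192 to 0.877 in QF and from -0.459 to 0.906 in TA. The genotypes were also compared within number. The difference of same-numbered arrays was positive in 6 of 6 pairs for 7 of the 10 probe sets, a pattern that 5.21% of all probe sets tested had. For Fmod (99152_at) the 6 differences ran between 1.22 and 1.95, for Kera between 0.56 and 1.99, and for Ogn (160877_at) between 0.61 and 1.37. They ran between 0.31 and 0.86 for Lum, between 0.24 and 0.71 for Bgn (96049_at) and between 0.03 and 0.30 for Dcn. For Dcn the sign depended on the normalization in some pairs. Its deposited intensity was lower in Dysf_null mice in QF pair 1 (7814.2 against 7901.5) and QF pair 3 (8706.1 against 8860.3). It was also lower in TA pair 3 (8918.9 against 9340.3), and higher in QF pair 2, TA pair 1 and TA pair 2. For Lum and both Ogn probe sets QF array 3 was the highest of its group in both genotypes.

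With the replicate number as a block within each muscle, 5 of the 10 probe sets rose in QF (1.68% of all), 4 in TA (0.92%) and 6 for the average (2.71%). Lum then passed in QF (adjusted p = 0.00235), in TA (0.039) and for the average (0.000808). Both Ogn probe sets passed in QF (adjusted p = 0.00573 for 160877_at and 0.0172 for 99549_at), in TA (0.00105 and 0.00436) and for the average (0.000208 and 0.000829). Bgn (96049_at) passed for the average (adjusted p = 0.015). Fmod passed in every one of these 3 comparisons with the block (adjusted p of at most 0.000878). Kera passed in QF (adjusted p = 0.0151) but not in TA (0.168), and Dcn passed in none (0.341 for the average). The fit with the block leaves fewer residual degrees of freedom. It also takes the numbers to pair the genotypes, which the labels do not state.

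**Figure D3:**
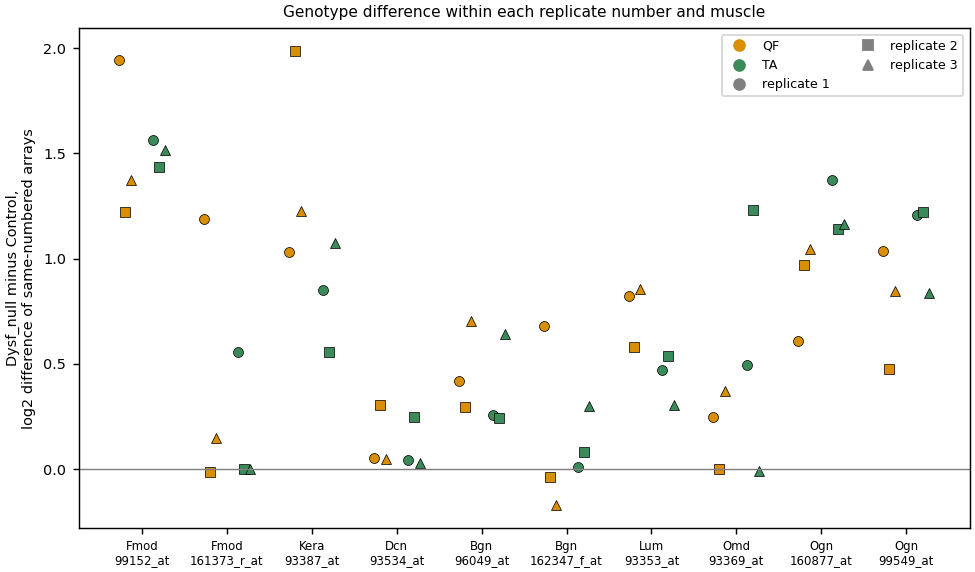
Log2 difference Dysf_null minus Control of arrays with the same replicate number (vertical axis) for each probe set, with colour for the muscle and symbol for the number. All 6 points lie above 0 for Fmod (99152_at), Kera, Dcn, Bgn (96049_at), Lum and both Ogn probe sets. Those of Dcn stay at or below 0.30, and its deposited intensities were not higher in Dysf_null mice in every pair.

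As a description, the change of each gene was also set against that of Dcn on the same arrays, at the probe set with the highest mean. Dcn was chosen for this after its small difference had been seen, so the values restate the differences above and carry no test. The log2 ratio to Dcn was higher in Dysf_null than in Control mice by 1.39 for Fmod, 1.00 for Kera, 0.93 for Ogn, 0.47 for Lum, 0.31 for Bgn and 0.27 for Omd, averaged over QF and TA.

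No member passed the comparison of the muscles. For TA minus QF, 0 of the 10 probe sets passed in Dysf_null mice (0.3% of all passed in either direction) and 0 in Control mice (0.736%). At an unadjusted limma p under 0.05 there was 1 in Dysf_null mice and 2 in Control mice, where 5.72% and 9.86% of all probe sets tested were under it. Bgn (96049_at) had TA minus QF differences of 0.48 ± 0.21 in Dysf_null mice (adjusted p = 0.831) and 0.57 ± 0.21 in Control mice (adjusted p = 0.374). Lum had 0.21 ± 0.20 in Dysf_null mice and 0.53 ± 0.20 in Control mice (adjusted p = 0.421 in Control). In Control mice the TA arrays lay above the QF arrays without overlap for 3 of the 10 probe sets, Kera, Bgn (96049_at) and Lum, against 8.16% of all. Fmod had 0.28 ± 0.26 and 0.29 ± 0.26, and Kera -0.17 ± 0.27 and 0.41 ± 0.27, in Dysf_null and Control mice. For the interaction between genotype and muscle, 0 of the 10 passed (0.0678% of all) and 0 had an unadjusted limma p under 0.05 (3.05% of all). The 95% intervals of the interaction were wide: -0.94 to 0.31 for Lum and -0.64 to 1.34 for Ogn (160877_at).

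**Figure D4:**
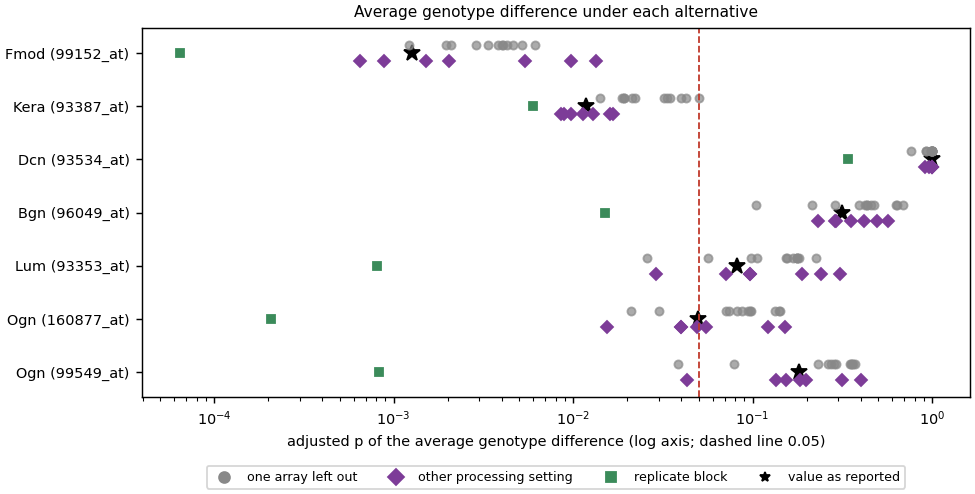
Adjusted p of the averaged genotype difference (horizontal log axis, dashed line at 0.05) for 7 probe sets as reported (stars), with the replicate block (squares), with 1 array left out (circles) and with other processing settings (diamonds). Fmod stays left of the line in every setting, Kera in all but 1, and Ogn (160877_at) and Lum lie on both sides of it.

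The fibrillar and associated collagens, to which these proteoglycans bind, were measured for 13 of 14 listed genes. For the average 4 rose and 0 fell: Col1a1, a chain of the main fibrillar collagen (0.92 ± 0.19, adjusted p = 0.0413), Col5a1 (0.45 ± 0.09, 0.0265) and Col5a2 (0.51 ± 0.11, 0.0444), chains of the collagen that starts fibrils, and Col6a3 (0.51 ± 0.11, 0.0444), a chain of the beaded filaments around fibres. In QF 1 rose (Col6a3, 0.81 ± 0.15, adjusted p = 0.0394) and in TA 0 did. At an unadjusted limma p under 0.05 there were 9 of the 13 in QF, 4 in TA and 9 for the average. Of all probe sets tested, 6.77% were under that value in QF, 4.82% in TA and 7.63% for the average. Without both QF arrays numbered 2 the counts were 0 in QF and 2 for the average, and with the block they were 8 in QF, 2 in TA and 9 for the average. The median over the 13 was 0.67 in QF, 0.32 in TA and 0.51 for the average. These are medians over genes, whereas the proteoglycan median of 0.51 is over 10 probe sets, so the 2 are unlike units. Most single arrays ended these calls when left out. Of 12 such fits the average passed in 3 for Col1a1, 4 for Col5a1, 2 for Col5a2 and 2 for Col6a3 (adjusted p up to 0.124, 0.0954, 0.132 and 0.139), and Col6a3 passed in QF in 3 (up to 0.166).

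Of the collagen processing and cross-linking genes, 9 of 18 were measured and 1 rose. Serpinh1, the collagen chaperone Hsp47, rose by 1.21 ± 0.15 in QF (adjusted p = 0.00452) and by 0.91 ± 0.11 as the average (0.00105), and it passed without any single array. In TA its difference was 0.61 ± 0.15 (adjusted p = 0.199). P4ha1, a subunit of prolyl hydroxylase, had an averaged difference of 0.68 ± 0.19 (adjusted p = 0.139).

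The enzymes that build and sulfate the sugar chains were measured for 12 of 34 listed genes, and 0 passed in either muscle or the average by limma. At an unadjusted p under 0.05 there were 2 in each of the 3 comparisons. The smallest p-values were those of Ugdh, which makes the glucuronic acid donor (0.72 ± 0.16, adjusted p = 0.0638), and Tpst1, a tyrosine sulfotransferase (0.90 ± 0.21, 0.0769). With the block 2 of the 12 rose for the average.

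Of the TGF-beta and BMP genes, ligands and pathway members of which several are bound by these proteoglycans, 24 of 27 were measured. None passed for genotype by limma, with 1 at an unadjusted p under 0.05 in each of the 3 comparisons, and with the block 1 rose in QF and for the average. Their median averaged difference was 0.00. Tgfb3 had 0.41 ± 0.16 (adjusted p = 0.467) and Tgfbi, a matrix protein induced by TGF-beta, 0.29 ± 0.14 (0.69). Mstn, the ligand myostatin, was lower in TA than in QF of Control mice by the fit (-1.01 ± 0.21, adjusted p = 0.043), with adjusted p up to 0.21 when single arrays were left out.

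Among the cell-surface receptors that soluble members of the family bind, 6 of 10 were measured and 0 passed by limma, with 0 in QF, 1 in TA and 1 for the average at an unadjusted p under 0.05. Cd44 had 0.75 ± 0.20 (adjusted p = 0.113), with all Control arrays and 1 Dysf_null_QF array at the floor. The size of its difference was therefore not measured. Its difference could not be negative either, so its p-value does not bear on the direction. Igf1r had -0.28 ± 0.14 (0.739). Of the matrix proteases and inhibitors, 9 of 13 were measured, and 2 proteases that cut matrix proteins rose in TA and for the average. Mmp13 had 2.23 ± 0.40 in TA (adjusted p = 0.0247) and 1.63 ± 0.28 as the average (0.0128). Mmp9 also rose in TA (adjusted p = 0.0201), by at least 3.12 on the log2 scale, a bound because all 3 Control_TA arrays were at the floor. The TA call held in 6 of 12 fits without a single array for each (adjusted p up to 0.117 for Mmp9 and 0.172 for Mmp13). The call of the average held in 2 of 12 for Mmp9 (adjusted p = 0.0444, up to 0.128) and in 11 of 12 for Mmp13 (up to 0.0502). Of 10 other members of the proteoglycan family, only Chad (chondroadherin) was measured, with 0.55 ± 0.18 for the average (adjusted p = 0.27).

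**Figure D5:**
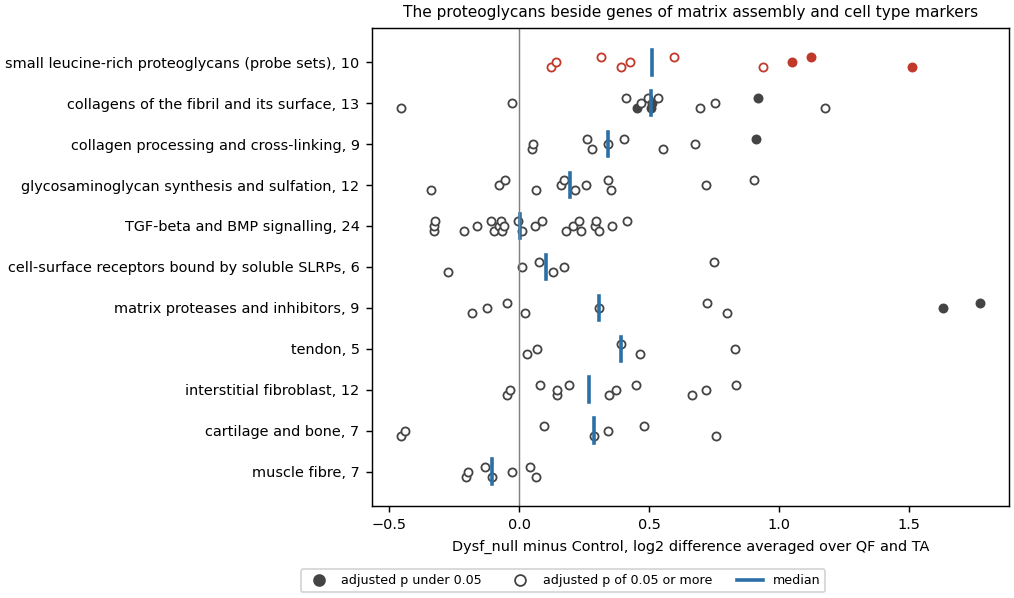
Log2 difference Dysf_null minus Control averaged over QF and TA (horizontal axis) of the 10 proteoglycan probe sets (red) and of the measured genes of 10 lists, 1 point a gene, with the number of points beside each name; filled points passed at an adjusted p under 0.05 and blue bars are medians. The median was 0.51 over the 10 proteoglycan probe sets, and over genes it was 0.51 for the collagens and 0.00 for TGF-beta and BMP signalling.

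Markers of cells that could make these proteoglycans are given beside them. Of the tendon markers 5 of 11 were measured (Scx, Egr1, Egr2, Cilp2 and Tnc). The array had no named probe set for Tnmd, Mkx, Thbs4, Comp, Cilp and Angptl7, so tendon is covered only in part. Of the 5, 0 passed by limma (0 in QF, 2 in TA and 2 for the average at an unadjusted p under 0.05). With the block 2 rose in TA and for the average. Tnc (tenascin-C) had 0.83 ± 0.23 as the average (adjusted p = 0.138), Cilp2 0.46 ± 0.13 (0.15) and Scx, the tendon factor scleraxis, 0.39 ± 0.20. The summed tendon marker intensity ran from 2189 to 2689 in Dysf_null_QF and from 1805 to 2025 in Control_QF, and from 2204 to 2444 in Dysf_null_TA and from 1326 to 1817 in Control_TA. The groups of a muscle did not overlap in this sum, for which no share over other gene sets was computed. Besides the fibroblast sum given below, those of other marker lists were also higher without overlap in TA or QF, but not in both. In TA these were Schwann (1018 to 1365 in Dysf_null, 881.7 to 978.6 in Control mice), skin, fat, osteoclast, and cartilage and bone markers. In QF they were macrophage (3355 to 3958 against 2631 to 3175) and mural markers. Endothelial and muscle fibre sums overlapped in both muscles.

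Of the interstitial fibroblast markers 12 of 14 were measured. Thy1 rose in QF (1.19 ± 0.23, adjusted p = 0.0394), though this passed in only 1 of 12 fits without a single array and not without both QF arrays numbered 2 (0.135). In QF 12 of 12 differences were positive with a median of 0.37, and in TA 9 of 12 with a median of 0.16. With the block 4 rose in QF, 0 in TA and 4 for the average. The summed intensity ran from 9215 to 9366 in Dysf_null_QF and from 6786 to 7594 in Control_QF, without overlap. In TA it ran from 8500 to 8891 in Dysf_null and from 7400 to 8494 in Control mice, and the nearest sums were almost equal. At an unadjusted limma p under 0.05 there were 5 genes in QF and 1 in TA. The part that numbers or activity of tendon or fibroblast cells had in the proteoglycan differences was not tested.

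Cartilage and bone markers, which could come with Omd, Ogn and Chad, were measured for 7 of 14 genes, and 0 passed by limma (0 in QF, 2 in TA and 1 for the average at an unadjusted p under 0.05). Their summed intensity was low and overlapped in QF, from 309 to 404.3 in Dysf_null and from 253.9 to 462 in Control mice. In TA it ran from 352.3 to 376.9 in Dysf_null and from 269.7 to 341.1 in Control mice. Matn3 was at the floor on all Control arrays, and Acan and Phex on all Control_TA arrays. There these genes could not come out lower in Dysf_null mice, and the list behind the TA count and the TA sum includes them. Of the osteoclast markers 4 of 5 were measured, with 3 positive and 1 negative in QF, in TA and for the average. Calcr was at the floor on all 3 Dysf_null_TA arrays and on 1 Control_TA array. Acp5 rose by 1.87 ± 0.25 in TA (adjusted p = 0.0039) and by 1.12 ± 0.18 as the average (0.00656), and both calls held in 12 of 12 fits without a single array. Mmp9, also on that list, rose as given above, with an averaged call that held in 2 of 12. Among 8 macrophage markers 7 differences were positive in QF, in TA and for the average, with medians of 0.42, 0.25 and 0.39. At an unadjusted limma p under 0.05 there were 3, 3 and 4. Lyz2 rose for the average (0.70 ± 0.13, adjusted p = 0.0219), and Cd68, the 1 negative gene in TA, fell there by 1.27 (adjusted p = 0.0104). Single arrays ended both macrophage calls (adjusted p up to 0.0745 and 0.0767). For muscle fibre, endothelial, mural, Schwann and skin markers 0 passed for genotype by limma, with 0 muscle fibre and 0 endothelial genes at an unadjusted p under 0.05, and at most 1 gene of each other list in any of the 3 comparisons. The summed muscle fibre intensity ran from 81810 to 90490 in Dysf_null_QF and from 87670 to 92450 in Control_QF, and from 71040 to 84930 in Dysf_null_TA and from 77400 to 90010 in Control_TA. Among 5 fat markers Ucp1 rose in QF (1.63 ± 0.27, adjusted p = 0.0181), but not without both QF arrays numbered 2 (0.0743). The part of these cells in the proteoglycan differences was not tested either.

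The genes whose levels were most like those of a member over the 12 arrays were found by Pearson correlation, which here includes the difference between the groups and serves as a description. Fmod was most like Serpinf1 (r = 0.969), which encodes pigment epithelium-derived factor, H2-Eb1 (0.943), a class II histocompatibility chain, and Ccn4 (0.937), a matricellular protein. Kera was most like Sparc (0.947), a collagen-binding matricellular protein, Psmb8 (0.913) and Tuba1c (0.908). Ogn was most like Ezh2 (0.949), Smim14 (0.944) and Tmem45a (0.942). Lum was most like Cdr2 (0.953), Rcn1 (0.946) and Arf4 (0.945), and Bgn most like Col6a2 (0.948), Smyd1 (0.896) and Anxa2 (0.891). Dcn was most like Ebf2 (0.944), Styx (0.926) and Mxd4 (0.924), and the low signal of Omd most like Ssr1 (0.952), Rrm1 (0.91) and Anln (0.909). Of the genes like Fmod, Serpinf1 had an averaged genotype difference of 1.05 ± 0.12 (adjusted p = 0.00113) and Ccn4 of 1.39 ± 0.23 (0.0084). Sparc, the gene most like Kera, had 0.72 ± 0.09 (0.0018). These genes were picked for likeness to members that differed between genotypes, so their p-values are no separate evidence.

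Several members lie side by side in the mouse genome. In the reference gene order Dcn, Lum and Kera follow each other on chromosome 10, and their averaged differences were 0.12, 0.60 and 1.12. Omd and Ogn are neighbours on chromosome 13, with 0.39 and, at 160877_at, 1.05. Fmod lies on chromosome 1 next to Btg2, an antiproliferative gene, which rose for the average by 0.60 ± 0.13 (adjusted p = 0.0498) but passed in only 2 of 12 fits without a single array. The measured genes next nearest to the others, Btg1 near Dcn, Iars near Ogn and Dusp9 near Bgn on chromosome X, had averaged differences of 0.07, -0.03 and 0.27, and their groups were not called.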

How the data were processed

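The members and gene lists were chosen with earlier results of these data known. Per the deposited table, the authors gave 1 linear intensity for each probe set on each array. Judged from the values, every array had been scaled to a trimmed mean near 200.1. No source used here names the software, the background correction or the summarisation. Of 12488 probe sets, 66 controls were left out. The deposited medians differed 1.47-fold between arrays, so the 12422 others were quantile normalized, set to a floor at the 25th percentile (23.025, log2 4.53) and put on a log2 scale. Those that exceeded the floor on 3 or more arrays (10331) were tested with limma 3.58.1 in R 4.3.3 (lmFit and eBayes with an intensity trend, 4 group means, 12 arrays, 8 residual degrees of freedom, two-sided), with Benjamini-Hochberg adjustment over all of them and calls at 0.05. The script was tested on simulated data. Precision is limited by having 3 arrays a group (median SE of a group difference 0.323).

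Names came from the platform's annotation, updated through gene numbers. Of the probe sets, 10833 had 1 symbol, 396 several and 1193 none, and only the first were named. A gene in a list stands at its probe set with the highest mean. Named were all members, list genes that passed in any comparison or else up to 2 with the smallest p, the 3 genes most correlated with each member, and the nearest genes on either side. Ratios to Dcn were added after the values were seen and are given without a test.

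Same-numbered arrays of the 2 genotypes correlated in their deviations from the group means by 0.39, 0.711 and 0.66 in QF and by 0.182, 0.114 and 0.231 in TA for numbers 1, 2 and 3, so a fit with the number as a block within each muscle is given beside the results. Between muscles of a genotype they did not pair (-0.141 to 0.123). Other alternatives were the deposited scaling, another floor, other filters, no intensity trend, array weights, only the 6 arrays compared, and leaving out arrays. Plots used matplotlib 3.10.9 in Python 3.11.15.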

Additional observations from a re-analysis of the deposited data

How the results depend on the processing

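Over the 6 comparisons, 10 probe sets and all settings, 1240 values were recomputed. No called difference changed sign, and 51 uncalled ones did. The number of the 10 probe sets that rose in QF, 2 as reported, was 1 with the deposited scaling or with no filter on low values, 0 with no intensity trend, with array weights, with only the 6 arrays compared or without both QF arrays numbered 2, and 5 with the replicate block. With single arrays left out it was 0 to 1. In TA, 1 as reported, it was 0 with no filter, no trend or only 6 arrays, 4 with array weights, 4 with the replicate block, and 0 to 1 with single arrays left out. For the average, 3 as reported, it was 5 with array weights, 6 with the replicate block and 1 to 5 with single arrays left out, 5 without Control_QF array 3 and 1 without Dysf_null_TA array 3. Dropping arrays leaves fewer to estimate the spread from; the cause of the other changes was not tested. The interaction and both comparisons of muscles gave 0 in every setting, the block by number within a genotype included.

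Over all probe sets the calls ranged from 0 to 273 in QF (47 as reported), from 14 to 192 in TA (42), from 56 to 474 for the average (113) and from 4 to 32 for the interaction (7). They ranged from 9 to 52 for TA minus QF in Dysf_null mice (31) and from 21 to 145 in Control mice (76). Ogn (160877_at) also missed the threshold for the average with the floor at the 10th percentile (adjusted p = 0.0554), with no filter (0.152) and with no trend (0.122). With array weights the average passed for Lum (0.0291) and Ogn at 99549_at (0.043). Signals near the floor limit Omd and Fmod at 161373_r_at.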

Other observations

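Within a genotype, the 7 genes were set against each other over the 6 arrays of both muscles. Of 42 correlations, 0 passed Benjamini-Hochberg adjustment over all 42 in exact permutation tests of Pearson's r or Spearman's rho. The lowest adjusted p-values were 0.175 for Pearson's r and 0.351 for Spearman's rho. Before adjustment, 4 permutation p-values of Pearson's r and 3 of Spearman's rho were under 0.05. With 6 arrays, the smallest p-value that such a test can give is too large for any correlation to pass this adjustment alone. The count of 0 therefore does not show that the genes vary independently.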
